A study of Mus musculus with 45 samples.

Results

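Bulk induced myogenic progenitor cells (iMPCs) were compared with bulk primary myoblasts, 3 libraries against 3, chosen by their sample titles from the 45 RNA-seq libraries of the series. The iMPC libraries came from embryonic fibroblasts of mice that carry a nuclear GFP reporter of the gene Pax7 (Tg:Pax7-nGFP, on a C57BL6;DBA2 background). The fibroblasts had received doxycycline, which switches on a MyoD transgene, together with the small molecules F/R/C for 13 days, and the resulting cells were kept in medium with F/R/C. The series describes them as established clones that no longer need doxycycline. The labels do not spell out F/R/C; in published iMPC protocols these are an adenylate cyclase activator, a TGF-beta receptor inhibitor and a GSK3 inhibitor. The myoblast libraries came from untreated cells of skeletal muscle with the same genotype label. So both groups carried the reporter, no library of this comparison was sorted on it, and the groups differed in tissue of origin, MyoD transgene, doxycycline history and F/R/C together. Neither the age of the muscle donors, the culture medium of the myoblasts nor whether the 3 libraries of a group were separate animals, clones or cultures is given in the sources used here. Both groups held libraries with and without Y-linked transcripts (values below), so the 3 libraries of a group did not all come from the same animal. Whether some of them did is not known. The p-values therefore measure the spread between these libraries, which may be technical in part.

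As background, Pax7 and Pax3 are transcription factors of muscle stem cells, which are called satellite cells. Activated satellite cells become myoblasts that express Myf5 and Myod1, divide, and then leave the cell cycle, switch on Myog and fuse into myotubes that build sarcomeres. Cultures of myoblasts or iMPCs can hold cells at several of these stages at once, and in bulk libraries fewer cells of a type and less RNA per cell cannot be told apart.

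Levels are given as CPM (counts-per-million, after TMM scaling of library size), and differences as the log2 fold change of iMPCs over myoblasts from edgeR's quasi-likelihood test with its standard error (SE). Genes counted as called had a p under 0.05 after Benjamini-Hochberg adjustment over all tested genes and a log2 fold change of 1 or more in either direction. The iMPC libraries held 33186100 to 36279300 estimated reads and the myoblast libraries 22023500, 35508900 and 23726400 (rounded), so depth moved with the group except in myoblast 2. With all 6 libraries thinned to the smallest, 1213 of 14826 genes were called, among them 1148 of the 1265 called with all reads (below), and none of these changed direction. Across genes, iMPC libraries correlated with each other at r = 0.953 to 0.978, myoblasts 1 and 2 at 0.959, and myoblast 3 with these at 0.923 and 0.914. Sex-linked transcripts split both groups alike: iMPC 3 and myoblast 2 held 254 and 248.8 CPM of 4 Y-linked genes combined, the other 4 libraries at most 0.673 CPM. A pair of libraries stood apart from their group. Myoblast 3 held far less RNA of the contractile apparatus than the other myoblast libraries. The library iMPC 2 held more RNA of several fibroblast genes than the other iMPC libraries. Where results rest on either, the values of each library are given, and for several of them a fit without it.

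Of 15762 genes tested, 1265 (8.03%) were called, 728 (4.62%) higher and 537 (3.41%) lower in iMPCs, and the median log2 fold change over all tested genes was -0.04. These shares are the background for every count of called list members below. A gene almost without reads in 1 group passed the filter on low counts through the other group. It could be called only in that direction. In all 1265 the 3 iMPC libraries did not overlap the 3 myoblast libraries, which was the case in 36.5% of all tested genes (iMPCs above in 21%, myoblasts above in 15.5%). The count depended strongly on single libraries. It was 104 without iMPC 1, 595 without iMPC 2, 222 without iMPC 3, 171 without myoblast 1, 1694 without myoblast 2 and 1490 without myoblast 3. No called gene changed direction in any of these fits. A core of 84 genes, 60 higher and 24 lower in iMPCs, was called in every one of the 6 fits, and genes of this core are pointed out below. With the presence of Y-linked transcripts as a term, an alternative chosen after seeing the data, 971 genes were called. A fit that shares the estimate of the spread over all 45 libraries called 19.6% of 17325 genes, 10.9% higher and 8.7% lower.

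The iMPC libraries expressed the core myogenic factors, but with less of those that mark the stem and progenitor stages. Pax7, the satellite cell factor (chromosome 4, 139737062 to 139833528 in GRCm38, the build of all positions here), was at 66.4, 41.8 and 86.2 CPM in iMPCs and at 428, 419 and 659 CPM in myoblasts. The groups lay far apart, at 64.8 ± 22.2 CPM against 502 ± 136 CPM (SD, n = 3), a log2 fold change of -3.04 with an SE of 0.35 and an adjusted p of 0.0102. Myod1, the factor that defines committed myoblasts and whose transgene made the iMPCs, was at 128, 98.7 and 127 CPM in iMPCs and at 900, 329 and 844 CPM in myoblasts (log2 fold change -2.64 with an SE of 0.42, adjusted p 0.019). Every iMPC library was below every myoblast library, and transcripts of the transgene and of the endogenous gene were not told apart. Myf5, the early myogenic factor, was lower in each iMPC library too, at 10.04, 23.4 and 57.2 CPM against 85.1, 81.6 and 78.6 CPM, but the iMPC libraries spread so widely that it was not called (log2 fold change -1.52 with an SE of 0.57, adjusted p 0.139).

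**Figure D1:**
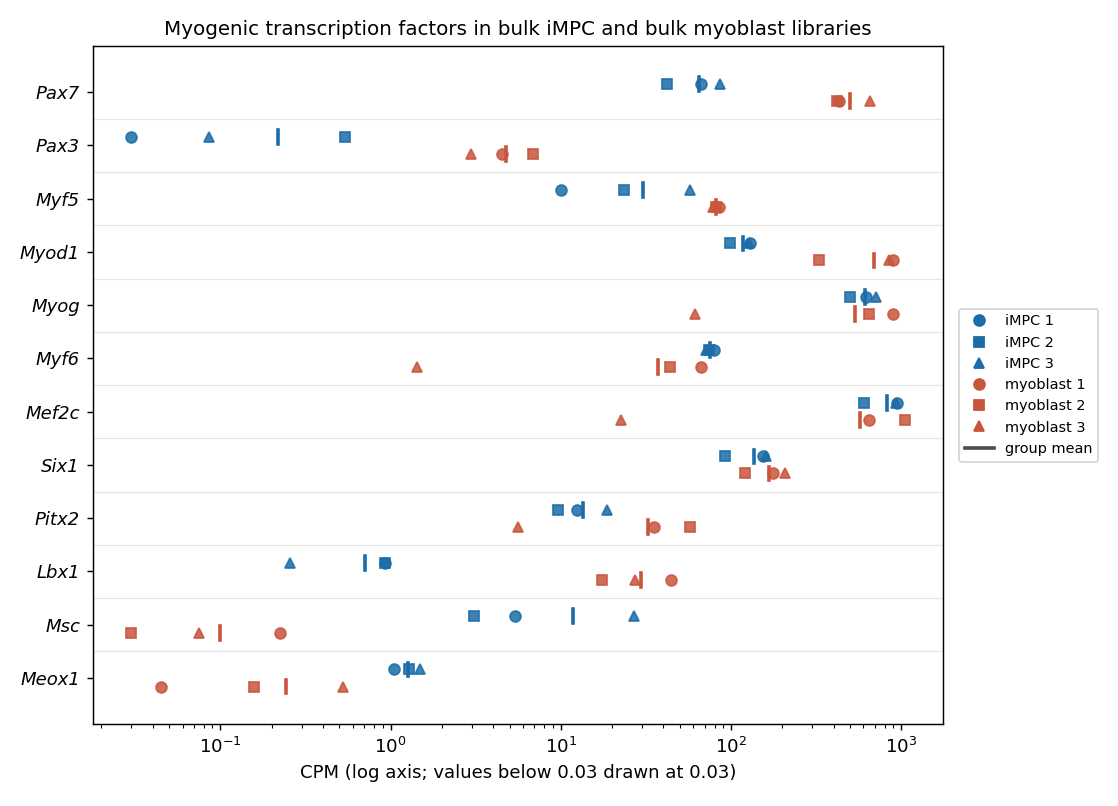
CPM of 12 myogenic transcription factors on a log axis, with 1 symbol per library (blue, iMPC; red, myoblast) and a bar at each group mean. Pax7, Myod1 and Lbx1 lie higher in all 3 myoblast libraries, Msc lies higher in all 3 iMPC libraries, and for Myog, Myf6 and Mef2c myoblast 3 lies far to the left of the other myoblast libraries.

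Of the 20 tested members of the list of myogenic transcription factors, 1 was called higher and 4 lower, beside 4.62% and 3.41% of all tested genes. Besides Pax7 and Myod1 the lower ones were Pax3 (log2 fold change -4.51, adjusted p 0.0424) and Lbx1, a homeobox factor of migrating limb muscle precursors. Lbx1 was at 0.931, 0.928 and 0.257 CPM in iMPCs and at 44.1, 17.4 and 27.4 CPM in myoblasts (log2 fold change -5.47 with an SE of 0.65, adjusted p 0.0104). Pax3 was low everywhere, with at most 0.539 CPM in iMPCs and 2.97 to 6.91 CPM in myoblasts. The member called higher was Msc, which encodes musculin, a repressor that competes with myogenic factors, at 5.41, 3.08 and 26.9 CPM against at most 0.224 CPM (log2 fold change 6.90, adjusted p 0.0317). Myog, the differentiation factor, was at 619, 500 and 713 CPM in iMPCs, within reach of myoblasts 1 and 2 at 888 and 647 CPM and far above myoblast 3 at 61.7 CPM. Its log2 fold change was 0.12 with all libraries and -0.38 without myoblast 3, and it was called in neither fit. With single libraries left out 0 to 6 members of the list were called, none of them without iMPC 1. Pax7 and Lbx1 were called in the other 5 such fits, while Myod1 was called only without myoblast 2 or 3.

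Surface markers and Notch genes, which bear on satellite cell quiescence, differed in few members. Among 12 tested satellite cell surface genes 1 was called higher and 1 lower, beside 4.62% and 3.41% of all tested genes. Cav1, which encodes the membrane coat protein caveolin, was at 130, 383 and 207 CPM in iMPCs and at 49.9, 35.5 and 44.7 CPM in myoblasts (log2 fold change 2.39, adjusted p 0.0242). Met, the receptor for hepatocyte growth factor, went the other way, with 33.3 to 51.5 CPM against 118 to 280 CPM (log2 fold change -2.17, adjusted p 0.0227). Neither was called without myoblast 1 or without iMPC 3, and Met lost its call without iMPC 1 or iMPC 2 as well. Of 14 tested Notch genes 2 were called, both higher, beside 4.62% called higher among all tested genes. Hey1, a target of Notch, was at 33.4, 18.96 and 32.9 CPM in iMPCs and at 1.84, 1.83 and 0.788 CPM in myoblasts (log2 fold change 4.17 with an SE of 0.44, adjusted p 0.00872), and it belongs to the core called in all 6 leave-out fits. The ligand gene Jag1 was at 19.9 to 24.5 CPM against 7.80 to 10.6 CPM (log2 fold change 1.23, adjusted p 0.0292). Heyl, a further Notch target, was at 78.8, 32.0 and 123 CPM against 2.74, 14.8 and 1.69 CPM; the groups did not overlap, but myoblast 2 was high for its group and the gene was not called (adjusted p 0.0629, and called without myoblast 2).

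The muscle differentiation genes are where the 3 myoblast libraries disagreed most. None of the 25 genes of the sarcomere and its calcium supply and none of the 8 muscle myosin heavy chain genes was called; over all tested genes the called share was 8.03%. In 24 of the 25 and in 8 of 8, myoblast 3 was at least 4-fold below both other myoblast libraries, which was the case in 5.53% of all tested genes. Acta1, the actin of skeletal muscle fibres, was at 4793, 3700.2 and 4669 CPM in iMPCs and at 7881, 2520.1 and 239.8 CPM in myoblasts. Ttn, which encodes the giant spring protein titin, was at 2368, 1896 and 2076 CPM against 1415, 1476 and 136 CPM. So iMPCs were near myoblasts 1 and 2, and myoblast 3 was the exception. As the mean log2 CPM over the 25 genes, the iMPC libraries ranged from 9.50 to 9.89, myoblasts 1 and 2 were at 9.77 and 9.41, and myoblast 3 was at 5.34.

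**Figure D2:**
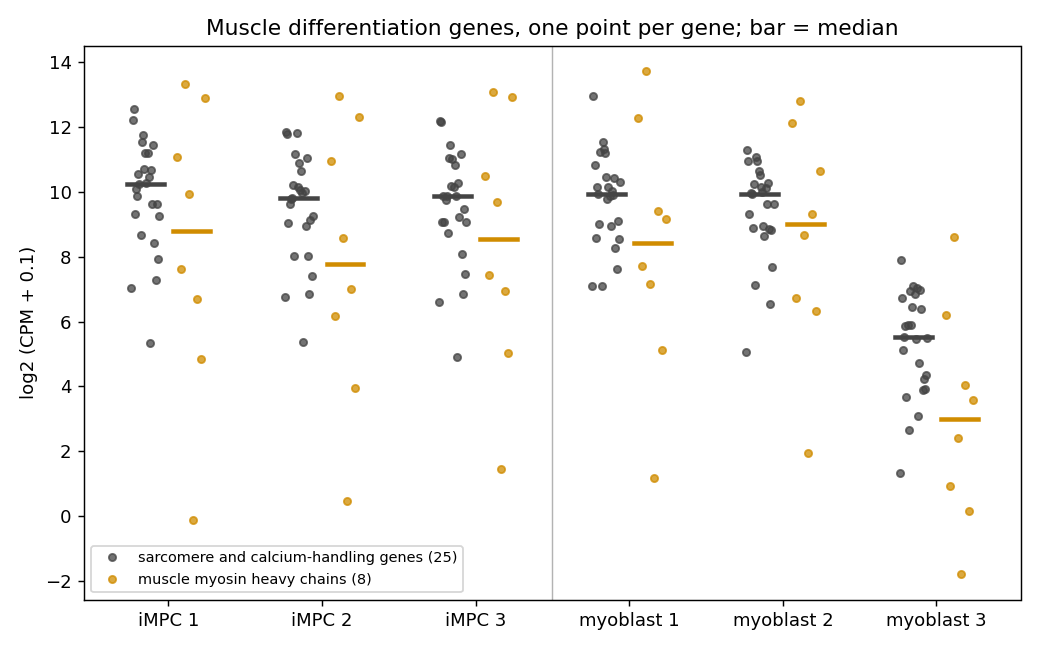
Log2 (CPM + 0.1) of 25 sarcomere and calcium-handling genes (dark grey) and 8 muscle myosin heavy chain genes (orange) in each library, with 1 point per gene and a bar at the median. Both medians of myoblast 3 lie far below those of the 5 other libraries.

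The myosin heavy chain genes, whose isoforms follow each other in muscle development, ran in both directions, with 4 log2 fold changes above 0 and 4 below. Myh3, the embryonic isoform, was at 10309, 7912 and 8634 CPM in iMPCs and at 13504, 7131 and 388 CPM in myoblasts, and its log2 fold change turned from 0.27 to -0.26 without myoblast 3. Myh8, the perinatal isoform, was at 7553, 5078 and 7713 CPM in iMPCs, above all myoblast libraries at 575, 1594 and 11.7 CPM. It had a log2 fold change of 3.16 with an SE of 1.34 and an adjusted p of 0.178 and was called only without myoblast 3, in DESeq2 and in the fit of all 45 libraries. Myoglobin (Mb), the oxygen store of oxidative fibres, was lower in iMPCs than in myoblasts 1 and 2, at 40.4, 41.3 and 29.98 CPM, with 491 and 401 CPM in those libraries and 8.41 CPM in myoblast 3. Without myoblast 3, 2 members of the sarcomere list were called higher and 1 lower, and of the myosin list 1 higher and 2 lower. The proliferation genes were highest in myoblast 3: the list's mean log2 CPM was 5.42 and 5.83 in myoblasts 1 and 2 and 6.69 in myoblast 3, a smaller spread than that of the sarcomere genes, and the part of either in the other was not tested.

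The promoters of 2 of these genes are shown because the sarcomere genes moved together between libraries and because MyoD-family factors bind E-boxes. The sequences are the 250 bases before the start of the gene from RefSeq (GRCm38.p6), 5′ to 3′, with the E-box letters CAGCTG in capitals (the motif reads the same on both strands). Acta1 is on the minus strand at chr8:123894776-123895025 and Myl1, which encodes a myosin light chain, on the minus strand at chr1:66945057-66945306.
Acta1: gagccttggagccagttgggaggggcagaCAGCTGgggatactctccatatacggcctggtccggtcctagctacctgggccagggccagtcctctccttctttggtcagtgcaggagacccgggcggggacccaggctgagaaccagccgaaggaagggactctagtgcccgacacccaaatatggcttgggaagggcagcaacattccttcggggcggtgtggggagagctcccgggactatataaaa
Myl1: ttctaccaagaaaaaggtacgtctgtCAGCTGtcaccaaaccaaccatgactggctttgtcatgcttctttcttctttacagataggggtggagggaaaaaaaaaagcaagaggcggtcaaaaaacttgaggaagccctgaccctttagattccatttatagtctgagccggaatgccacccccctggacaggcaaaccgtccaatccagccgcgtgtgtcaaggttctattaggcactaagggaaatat
Each window held 1 match, while that of the cardiac actin gene Actc1 held none. Of 19 sarcomere genes with an entry 9 held the motif, against 13% of 32851 promoter windows of the same length; a match of letters is a description and not a binding site.

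Genes of the neuromuscular junction, which cultured myotubes also express, were lower in iMPCs in part. Of 12 tested, 0 were called higher and 3 lower, beside 4.62% and 3.41% of all tested genes. Chrnb1, the beta subunit of the muscle acetylcholine receptor, was at 91.9, 69.9 and 78.9 CPM in iMPCs and at 347, 321 and 271 CPM in myoblasts (log2 fold change -2.04 with an SE of 0.20, adjusted p 0.00826). It is the member of this list in the core called in all 6 leave-out fits. Chrna1, the alpha subunit, was at 769, 660 and 493 CPM against 2799, 2110 and 1421 CPM (log2 fold change -1.80 with an SE of 0.34, adjusted p 0.0289). Rapsn, which encodes the protein that clusters the receptor, was at 12.9 to 19.04 CPM against 41.3 to 64.8 CPM (log2 fold change -1.78, adjusted p 0.0165). These receptor genes were lower in iMPCs although myoblast 3, with its low sarcomere RNA, was the lowest myoblast library for Chrna1 and Chrnb1. The gamma subunit Chrng, which is typical of fetal receptors, had 391 to 533 CPM in iMPCs, 169.7 to 399.6 CPM in myoblasts and no call (log2 fold change 0.54, adjusted p 0.342). With single libraries left out 1 to 6 genes of the list were called, the fewest without iMPC 1, iMPC 3 or myoblast 1 and the most without myoblast 3. Of 8 tested fusion genes 2 were called lower, beside 3.41% of all tested genes. They were the adhesion genes Jam2 (log2 fold change -1.84, adjusted p 0.0464) and Cdh2, which encodes N-cadherin (log2 fold change -1.67, adjusted p 0.0171). Cdh2 was at 121 to 197 CPM against 487 to 549 CPM.

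Genes of DNA replication and mitosis did not separate the bulk cultures: of 16 tested, 0 were called in either direction by edgeR, by DESeq2, by limma voom or in any of the other fits, and the list's median log2 fold change was 0.00. Top2a, the topoisomerase of dividing cells, was at 204, 379 and 339 CPM in iMPCs and at 109.96, 220.2 and 400.3 CPM in myoblasts, so the groups overlapped widely. Of 10 tested regulators of the cell cycle 1 was called higher and 2 lower, beside 4.62% and 3.41% of all tested genes. Their median log2 fold change was 0.04, with 5 members above 0 and 5 below. Ccnd1 and Ccnd2, the D cyclins that drive entry into the cycle, were lower in iMPCs. Ccnd1 was at 174, 308 and 198 CPM against 949.9, 489.6 and 1565 CPM (log2 fold change -2.23, adjusted p 0.0398), and Ccnd2 at 139, 232 and 106 CPM against 934, 591 and 612 CPM (log2 fold change -2.24, adjusted p 0.0223). Cdkn1b, which encodes the inhibitor p27, was higher, at 60.3, 91.4 and 96.8 CPM against 23.9, 33.6 and 18.99 CPM (log2 fold change 1.62, adjusted p 0.0236). Cdkn1c, an imprinted inhibitor gene that is high in differentiating muscle, was at 725, 499 and 876 CPM in iMPCs and at 0.987, 33.6 and 0.413 CPM in myoblasts. Its groups were far apart, but because myoblast 2 was so much higher than the other myoblasts it was not called (log2 fold change 5.85 with an SE of 1.66, adjusted p 0.0773), and it was called without that library. No member of the list of cycle regulators was called without iMPC 1, iMPC 3 or myoblast 1, and 1 was without iMPC 2.

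Most fibroblast markers were higher in iMPCs. Of 14 tested, 10 were called higher and 0 lower, beside 4.62% called higher among all tested genes. The median log2 fold change was 5.26 (the same with Lum, which had no reads in myoblasts, at its bound). Members almost without reads in myoblasts, such as Lum and Dcn, passed the filter on low counts through the iMPC libraries. They could come out only higher, which favours this count, and the list was chosen with earlier results known. Col1a1, the main fibrillar collagen of fibroblasts, was at 272, 267 and 240.3 CPM in iMPCs and at 0.314, 2.15 and 0.413 CPM in myoblasts (log2 fold change 7.95 with an SE of 0.81, adjusted p 0.00848). Fap, a surface protease of activated fibroblasts, was at 46.2, 89.9 and 58.1 CPM against 0.0898, 0.89 and 0.113 CPM (log2 fold change 7.27, adjusted p 0.0104), and Pdgfrb, a growth factor receptor of mesenchymal cells, at 64.7, 54.1 and 120.3 CPM against 0.404, 1.34 and 0.3003 CPM (log2 fold change 6.74, adjusted p 0.00848). These 3 genes belong to the core called in all 6 leave-out fits. Other members were carried mainly by iMPC 2. Pdgfra, the receptor that marks fibro-adipogenic progenitors, was at 540.2 CPM in iMPC 2 and at 45.6 and 13.9 CPM in iMPCs 1 and 3. Pdgfra lost its call in each of the 6 leave-out fits. Dcn, the matrix proteoglycan decorin, was at 543 CPM in iMPC 2 and at 24.2 and 20.6 CPM in the others, against at most 0.419 CPM in myoblasts. Col1a2 was at 102, 619 and 343 CPM against 2.38, 20.7 and 7.69 CPM. Without iMPC 2, 7 members were called, all higher, and the median log2 fold change was 4.65; the lowest count, 3, was found without iMPC 1 or iMPC 3.

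**Figure D3:**
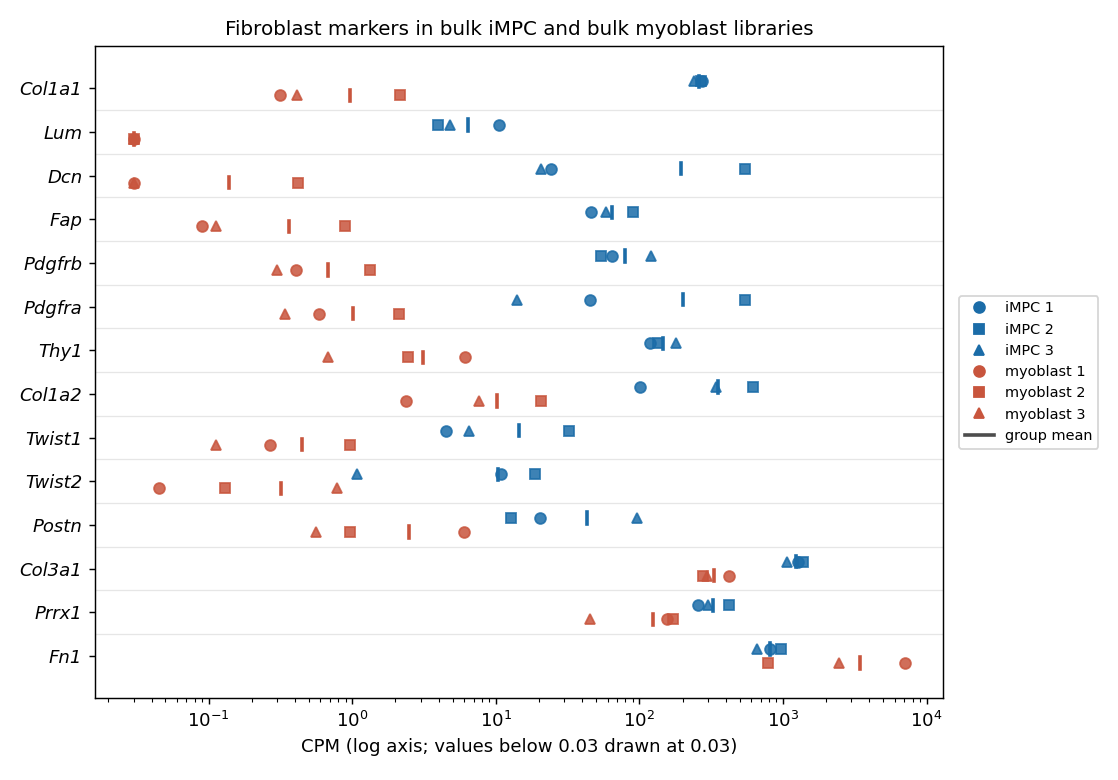
CPM of the 14 tested fibroblast markers on a log axis, with 1 symbol per library (blue, iMPC; red, myoblast) and a bar at each group mean. All but Fn1 lie higher in every iMPC library than in every myoblast library, and the square of iMPC 2 lies apart for Pdgfra and Dcn.

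The summed level of the 16 fibroblast markers was 3056 to 5087 CPM in iMPCs and 1271 to 7630 CPM in myoblasts. The high myoblast value came from Fn1, which encodes fibronectin and was at 806, 967 and 665 CPM in iMPCs and at 7039, 786 and 2449 CPM in myoblasts. It was the member that pointed the other way, and myoblast 1 decided its size (log2 fold change -2.17, adjusted p 0.121). Lum, the proteoglycan lumican, had no read in any myoblast library and 10.5, 3.98 and 4.82 CPM in iMPCs, at least 59.1-fold above the floor of 3 reads per library. Basement membrane genes followed in part, with 3 of 11 called higher and 0 lower, beside 4.62% and 3.41% of all tested genes. Lama4, a laminin chain, was at 51.4, 147 and 66.1 CPM against 0.0449, 0.733 and 0.188 CPM (log2 fold change 7.89 with an SE of 0.90, adjusted p 0.00993), and the type IV collagen genes Col4a1 and Col4a2 had log2 fold changes of 1.39 and 1.48. Of 9 genes of smooth muscle and pericytes 3 were called higher (4.62% of all tested genes), Myh11, Cnn1 and Kcnj8. Kcnj8, a potassium channel gene of pericytes, was at 4.03 to 8.21 CPM against at most 0.0449 CPM, at least 50.1-fold higher. Myh11 and Cnn1 differed among iMPC libraries, with Cnn1 at 9.76, 40.6 and 6.95 CPM. Rgs5, a pericyte gene, was at 60.3, 8.95 and 28.02 CPM against 746, 77.1 and 408 CPM and was not called (adjusted p 0.0667).

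Some defining markers of other cell types were at or near 0 in both groups, while further members of the same lists were not. The immune markers Ptprc, Adgre1 and Tyrobp, the endothelial markers Emcn and Tie1 and the epithelial markers Krt5, Krt14 and Esrp1 did not exceed 0.114 CPM in any of the 6 libraries. Among the other immune markers Cd68 was at 3.24 to 9.28 TPM over the 6 libraries. Itgam was at 1.19 to 1.49 TPM in iMPCs and 0.0289 to 1.02 TPM in myoblasts. The endothelial marker Pecam1 reached 0.791 TPM. The summed levels were 6.17 to 9.59 CPM of 9 immune markers in iMPCs and 4.73 to 5.05 CPM in myoblasts, and 1.82 to 1.83 CPM of 8 endothelial markers against 0.987 to 2.46 CPM. Among all tested genes 4.62% were called higher and 3.41% lower. Called higher were 1 of 6 tested epithelial, 1 of 3 adipocyte, 1 of 4 Schwann cell and 2 of 5 neuronal markers. Called lower were 1 of the 4 Schwann cell and 2 of 4 cartilage and bone markers. The neuronal ones were Snap25 and Map2 (log2 fold changes 3.20 and 2.54) at up to 2.37 and 51.8 CPM. The pan-neuronal markers Elavl3, Elavl4 and Rbfox3 did not exceed 0.395 CPM. Stmn2, a microtubule regulator of neurons, was at 16.9, 214 and 10.004 CPM in iMPCs and at 5.70, 10.8 and 62.5 CPM in myoblasts, high in iMPC 2 and myoblast 3, and Cldn4, a tight junction gene, reached 80.4 CPM in myoblast 1 alone. Krt19, a keratin gene, was at 2.85 to 14.1 CPM in all 6 libraries, Krt18 reached 12.2 CPM in myoblast 2, and the 15 epithelial markers summed to 8.71 to 20.03 CPM in iMPCs and 12.4 to 89.3 CPM in myoblasts. The summed level of 8 neuronal markers was 89.6 to 291 CPM in iMPCs and 27.3 to 98.3 CPM in myoblasts. Foxd3, a transcription factor of the neural crest, was at 2.85, 3.38 and 5.67 CPM in iMPCs and without reads in myoblasts, at least 36.5-fold above the floor, whereas the Schwann cell gene Mbp was lower (log2 fold change -3.33, adjusted p 0.0272). The bone factors Runx2 and Sp7 were higher in myoblasts. Runx2 was at 9.35 to 21.4 CPM in iMPCs and 51.9 to 89.9 CPM in myoblasts (log2 fold change -2.10, adjusted p 0.0271). Sp7 was at 1.97, 3.85 and 62.8 CPM in myoblasts, so its level rests on myoblast 3, and its call is lost in DESeq2. The part of such cells in the results was not tested.

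Genes of glycolysis and the response to low oxygen were the largest group of list members called in 1 direction next to the fibroblast markers: 9 of 14 tested were called higher (4.62% of all tested genes) and 0 lower, with a median log2 fold change of 1.45. Hypoxia-inducible factors switch on such genes through a short core motif in their promoters. The 250 bases before the start are shown for 4 of the 9, those with the largest fold change that have an entry in the RefSeq table (GRCm38.p6), with the core letters ACGTG or GCGTG, on either strand, in capitals. Car9 is on the plus strand at chr4:43506776-43507025, Adm on the plus strand at chr7:110627407-110627656, Bnip3 on the minus strand at chr7:138909507-138909756, and Pdk1 on the plus strand at chr2:71872974-71873223, the more upstream of 2 starts.
Car9: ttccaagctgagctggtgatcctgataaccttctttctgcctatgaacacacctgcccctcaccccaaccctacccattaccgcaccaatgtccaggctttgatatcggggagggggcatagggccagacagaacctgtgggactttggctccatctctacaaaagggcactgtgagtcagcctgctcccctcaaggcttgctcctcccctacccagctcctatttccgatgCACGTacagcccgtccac
Adm: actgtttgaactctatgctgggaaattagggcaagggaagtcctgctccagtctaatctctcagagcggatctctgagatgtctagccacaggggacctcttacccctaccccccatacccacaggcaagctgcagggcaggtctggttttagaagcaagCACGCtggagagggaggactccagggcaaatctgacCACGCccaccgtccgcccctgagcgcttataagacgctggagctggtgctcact
Bnip3: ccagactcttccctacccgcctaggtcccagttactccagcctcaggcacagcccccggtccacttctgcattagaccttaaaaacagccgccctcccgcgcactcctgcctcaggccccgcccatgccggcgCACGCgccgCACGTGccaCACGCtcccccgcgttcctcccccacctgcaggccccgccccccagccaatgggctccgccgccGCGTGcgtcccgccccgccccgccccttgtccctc
Pdk1: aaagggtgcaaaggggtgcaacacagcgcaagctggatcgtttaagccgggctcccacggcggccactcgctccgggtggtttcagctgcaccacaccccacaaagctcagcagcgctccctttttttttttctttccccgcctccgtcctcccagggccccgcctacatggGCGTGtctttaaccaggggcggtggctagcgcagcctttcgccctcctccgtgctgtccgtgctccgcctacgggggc
The windows held 1, 2, 5 and 1 matches in this order, overlapping matches counted separately. Of the 9 called genes 8 had an entry, and all 8 held at least 1 match. Among 32851 promoter windows of the same length the share was 38.6%. The list was made of known hypoxia-response genes, and its uncalled members were not scanned. So this share does not bear on the difference between iMPCs and myoblasts. As above, a match is no more than a run of letters.

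Car9, the carbonic anhydrase that is a common marker of hypoxic cells, was at 53.2, 51.6 and 64.5 CPM in iMPCs and at 0.359, 0.838 and 0.338 CPM in myoblasts (log2 fold change 6.66 with an SE of 0.41, adjusted p 0.00284). Adm, which encodes the peptide adrenomedullin, was at 35.3, 72.9 and 28.04 CPM against 0.359, 1.62 and 0.450 CPM (log2 fold change 5.69, adjusted p 0.0131). Ndrg1, a stress-response gene, was at 87.4, 112 and 89.5 CPM against 6.91, 11.4 and 11.8 CPM (log2 fold change 3.18 with an SE of 0.27, adjusted p 0.00573). The iMPC libraries agreed closely for Car9 and Ndrg1 and less so for Adm, and none overlapped a myoblast library. Glucose transport and its first steps followed with smaller differences: Slc2a1, the glucose transporter GLUT1, had a log2 fold change of 1.65, and Hk2, a hexokinase, of 1.61 (adjusted p 0.013 and 0.0147). Pgk1, an enzyme of lower glycolysis, was at 1632, 1623 and 1581 CPM against 717, 648 and 669 CPM (log2 fold change 1.17 with an SE of 0.21, adjusted p 0.0251). Bnip3, a gene of mitochondrial turnover, Pdk1, a kinase that limits entry of pyruvate into mitochondria, and Egln3, an oxygen sensor, had log2 fold changes of 2.86, 2.68 and 1.29. For Bnip3 and Pdk1, myoblast 3 was the lowest library, at 22.1 and 8.596 CPM against 79.2 to 85.1 and 49.1 to 51.2 CPM in the other myoblasts. Pfkl missed the minimum fold change (0.95, adjusted p 0.0448), while Vegfa, Ldha, Aldoa and Eno1 did not pass the adjusted p. With single libraries left out 2 to 9 members were called, and Car9 and Ndrg1 were in the core called in all 6 fits; the count was 2 without iMPC 1, 3 without myoblast 1 and 4 without iMPC 3.

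**Figure D4:**
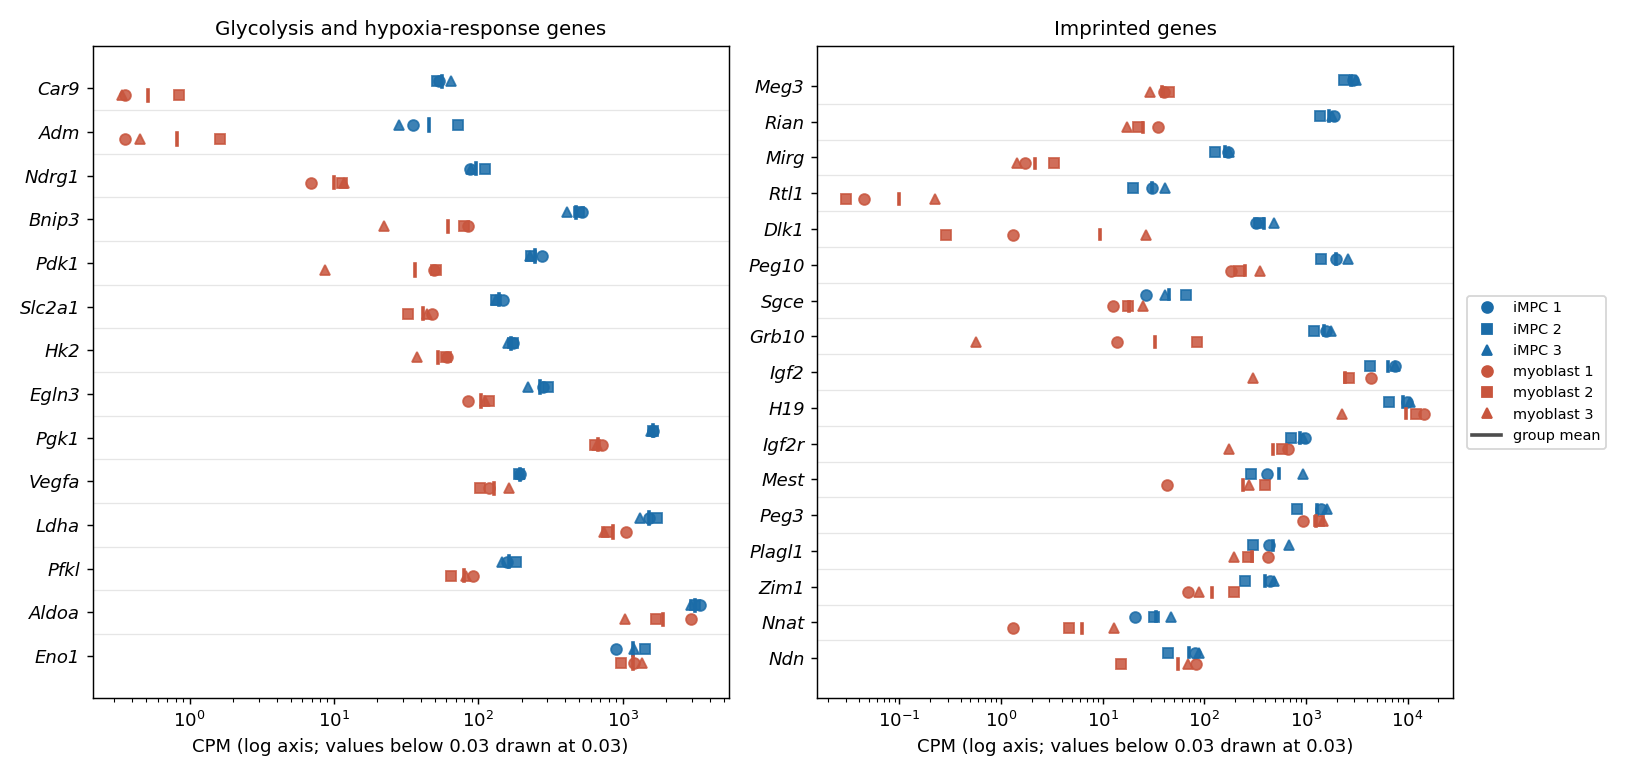
CPM on a log axis of 14 glycolysis and hypoxia-response genes (left) and 17 imprinted genes (right), with 1 symbol per library (blue, iMPC; red, myoblast) and a bar at each group mean. Car9 and the chromosome 12 genes Meg3, Rian, Mirg and Rtl1 show iMPC and myoblast points far apart, while the myoblast points of Grb10 and Dlk1 are widely spread.

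Genes of sterol and fatty acid synthesis were called higher in 4 of 13 and lower in 0, beside 4.62% and 3.41% of all tested genes. They were the desaturases Scd1, at 168, 256 and 147 CPM against 12.7, 20.2 and 38.1 CPM (log2 fold change 2.93, adjusted p 0.0186), and Scd2 (log2 fold change 1.64), and the early sterol enzymes Hmgcs1 and Idi1 (log2 fold changes 1.12 and 1.10). No member was called without iMPC 1, iMPC 3 or myoblast 1.

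Imprinted genes, which are expressed from 1 parental copy and are typical of fetal growth, were called higher in iMPCs in 5 of 17 tested and lower in 0, beside 4.62% called higher among all tested genes, and the median log2 fold change was 1.66. Among them 4 lie in the Dlk1-Meg3 region of chromosome 12, whose maternal copy makes a series of non-coding RNAs. Meg3 (chromosome 12, 109541001 to 109571726) was at 2903, 2375 and 3082 CPM in iMPCs and at 40.6, 44.5 and 29.4 CPM in myoblasts (log2 fold change 6.11 with an SE of 0.32, adjusted p 0.00284). Rian (109603940 to 109661716) was at 1909, 1361 and 1804 CPM against 34.9, 22.1 and 17.5 CPM, and Mirg (109729764 to 109749460) at 171, 128 and 177 CPM against 1.71, 3.33 and 1.43 CPM (log2 fold changes 6.00 and 6.11, adjusted p 0.00284 each). Rtl1, a retrotransposon-derived gene of the same region, was at 30.3, 19.9 and 41.5 CPM against at most 0.225 CPM (log2 fold change 8.19 with an SE of 0.75, adjusted p 0.00747). All 4 belong to the core called in every leave-out fit, and the groups stood apart by far more than their spread. Reads of Meg3, Rian and Mirg were in part divided between genes by the authors' quantification, while those of Rtl1 were whole counts.

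Peg10, the fifth, is a retrotransposon-derived gene of placenta and was at 1962, 1409.6 and 2605 CPM against 183, 219 and 353 CPM (log2 fold change 2.90 with an SE of 0.38, adjusted p 0.0135). For Dlk1 and Grb10 the myoblast libraries disagreed. Dlk1, which encodes a fetal protein of the Notch ligand family, was at 324, 346 and 481 CPM in iMPCs and at 1.30, 0.288 and 26.4 CPM in myoblasts (log2 fold change 5.26, adjusted p 0.0855). Grb10, a growth inhibitor gene, was at 1587, 1206 and 1749 CPM against 14.0, 83.9 and 0.563 CPM (log2 fold change 5.47, adjusted p 0.073). Both were called without myoblast 3, and Grb10 also without myoblast 2. The neighbours Igf2 and H19, a fetal growth factor and a non-coding RNA, were not called. Igf2 was at 7463, 4247 and 7568 CPM against 4358, 2627 and 299 CPM, and H19 at 9962, 6564 and 10504 CPM against 14589, 11991 and 2272 CPM, so for both the lowest library was myoblast 3. With single libraries left out 4 to 8 imprinted genes were called, the most without myoblast 3.

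Hox genes record the position of a cell along the body. Of 31 tested Hox genes 1 was called higher and 2 lower, a share of called genes close to the 8.03% of all tested genes. The 3 called genes lie in the HoxC cluster on chromosome 15. Hoxc11 (102954427 to 102957708) was at 23.3, 2.59 and 20.9 CPM in myoblasts and had at most 0.0285 CPM in iMPCs, at least 180.3-fold lower. Hoxc13 (102921103 to 102928814) was at 32.1, 5.42 and 15.6 CPM in myoblasts and at most 0.057 CPM in iMPCs, at least 204.5-fold lower. The more anterior Hoxc8 was higher in iMPCs, at 11.8, 10.9 and 17.6 CPM against 0.763, 1.96 and 2.51 CPM (log2 fold change 2.85, adjusted p 0.0237). Myoblast 2 had the lowest Hoxc11 and Hoxc13 and the highest Hoxb9 of the myoblasts, 5.08 CPM against 0.0449 and 0.751 CPM, beside 14.4 to 27.7 CPM in iMPCs, and without it 8 Hox genes were called higher and 3 lower. None was called without iMPC 1, and without myoblast 1 or iMPC 3 only Hoxc13 was, and Hoxc8 was not called without iMPC 2 either. Of the other positional factors Tbx2 was called higher (log2 fold change 2.82, adjusted p 0.0202). Dbx1, a homeobox factor of the embryonic spinal cord, was at 15.3, 8.89 and 48.8 CPM in iMPCs and had no read in any myoblast library, at least 224-fold above the floor. Of 20 neural homeobox genes on the list 18 were too low to be tested.

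Genes that report on the pathways of F/R/C were examined next. Targets of cyclic AMP were called higher in 4 of 12, beside 4.62% of all tested genes, and lower in 0: Fos, at 80.8, 56.4 and 90.3 CPM against 7.99, 9.84 and 5.22 CPM (log2 fold change 3.22 with an SE of 0.31, adjusted p 0.00825), Nr4a1 (2.61), and the phosphodiesterase genes Pde4b (2.11) and Pde4d (1.10). Fos was in the core called in all 6 fits, and it was the 1 gene called without iMPC 1, iMPC 3 or myoblast 1. Of 13 TGF-beta genes 1 was called higher and 2 lower, beside 4.62% and 3.41% of all tested genes. The lower ones were the feedback genes Skil, at 41.2, 30.3 and 41.7 CPM against 117, 139 and 135 CPM (log2 fold change -1.87 with an SE of 0.19, adjusted p 0.00848), and Smad7 (log2 fold change -1.70, adjusted p 0.0424). The higher one, Tgfbi, is a matrix gene induced by TGF-beta and was at 159, 199 and 23.6 CPM against at most 0.812 CPM (log2 fold change 8.22, adjusted p 0.0146). Among 10 tested Wnt target genes Lgr5 and Notum were called higher (log2 fold changes 3.08 and 4.73) and Lgr6 and Lef1 lower (-4.03 and -2.27). Among all tested genes 4.62% were called higher and 3.41% lower. The called members thus ran in both directions, while the list's median log2 fold change was 1.25, with 7 members above 0 and 3 below. With single libraries left out 0 to 3 of the Wnt genes were called.

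Of 9 tested BMP and Id genes 3 were called lower in iMPCs and 0 higher, beside 3.41% and 4.62% of all tested genes. The 3 were Id1, Id2 and Id3, which encode inhibitors of MyoD-type factors and respond to BMP, while Id4 was not called, at 14.9, 3.20 and 14.1 CPM in iMPCs and at 2.51, 5.55 and 2.14 CPM in myoblasts. Id1 was at 19.4, 14.4 and 15.2 CPM against 82.5, 43.7 and 123 CPM (log2 fold change -2.43, adjusted p 0.0202), Id2 had a log2 fold change of -1.31, and Id3 was at 45.7, 39.4 and 51.8 CPM against 168, 81.4 and 309 CPM (log2 fold change -2.12, adjusted p 0.0436). For Id1 and Id3 myoblast 3, the library with the least sarcomere RNA, was the highest, and 3 Id genes were called without it as well; none was called without iMPC 1, iMPC 2, iMPC 3 or myoblast 1. Fgfr4, a fibroblast growth factor receptor of developing muscle, was the 1 of 13 FGF genes called, a share near the 8.03% of all tested genes and not called without iMPC 1 or myoblast 1, at 106, 90.7 and 245 CPM against 17.2, 28.9 and 19.3 CPM (log2 fold change 2.68, adjusted p 0.0197). Of the guidance genes Slit2 was higher, at 125, 531 and 58.8 CPM against at most 3.276 CPM, and Slit3 had no read in myoblasts and 21.6, 154 and 6.50 CPM in iMPCs, while the receptor gene Robo1 was lower (log2 fold change -1.37, adjusted p 0.029). For both Slit genes iMPC 2 was the highest library, as for Pdgfra and Dcn. Of 5 tested Slit and Robo genes 2 were called higher and 1 lower, beside 8.03% of all tested genes called. With single libraries left out 0 to 2 of them were called, and 0 kept the call in all 6 fits.

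Beyond the lists, the largest fold changes toward iMPCs among genes with at least 5 CPM in the higher group included Gpc3, Col6a2, Crabp1 and Arhgap36, all of the core called in every leave-out fit. Gpc3, a fetal cell surface proteoglycan, was at 158, 166 and 249.01 CPM against at most 0.340 CPM (log2 fold change 9.82 with an SE of 0.54, adjusted p 0.00284). Col6a2, a chain of collagen VI, was at 230, 386 and 231 CPM against at most 0.367 CPM (log2 fold change 10.11). Crabp1, a retinoic acid binding protein gene, was at 117, 126 and 49.9 CPM against at most 0.157 CPM (log2 fold change 9.79), and Arhgap36 at 137, 37.0 and 39.5 CPM against at most 0.0785 CPM, at least 655-fold higher. Toward myoblasts, Dock8, a guanine nucleotide exchange factor gene, was at 20.8, 42.2 and 23.4 CPM against at most 0.0898 CPM, at least 332-fold higher, and Mgl2, a lectin gene, at 17.5, 20.7 and 33.3 CPM against at most 0.143 CPM. By difference in CPM among called genes, Spp1, which encodes the secreted protein osteopontin, led those higher in myoblasts, at 3985, 4384 and 5306 CPM against 954, 851 and 480.5 CPM (log2 fold change -2.66, adjusted p 0.0143). Thbs1, a matrix glycoprotein gene, Flna and Myh9, genes of the non-muscle cytoskeleton, and Cdon, a co-receptor that promotes myogenesis, followed with log2 fold changes of -3.18, -1.66, -1.74 and -1.69. Toward iMPCs the difference in CPM among called genes was led by Meg3, Peg10 and Rian, followed by Itm2a, a membrane protein gene (log2 fold change 2.94). The uncalled Myh8 differed by more, with means of 6781 CPM in iMPCs and 727 CPM in myoblasts.

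Over all tested genes, 15.2% had a range of at least 2 on the log2 scale among the 3 myoblast libraries and 5.39% among the 3 iMPC libraries. Among 7501 genes with a mean of at least 20 CPM in myoblasts, 521 had such a range. In 377 of them the library far from the others was myoblast 3 on the low side, in 41 myoblast 3 on the high side, and in the remaining ones myoblast 1 or 2. The genes with the widest range, apart from the sex-linked Xist, included the muscle genes Mybpc1, at 610.5, 754 and 5.37 CPM, and Fbxo40, at 66.6, 19.98 and 0.375 CPM, and the interferon-induced gene Gbp6, at 209, 165 and 1.43 CPM. Fam177a differed in another way, with 42.1 and 27.5 CPM in myoblasts 1 and 3 and no read in myoblast 2. Among iMPCs the far library was iMPC 2 on the high side in 70 of 118 genes. Measured against the iMPC mean, myoblast 2 was the nearest of the 3 myoblast libraries for 48.2% of tested genes. Of the 728 genes called higher, 711 were at least 2-fold higher than myoblast 2 taken alone, and of the 537 called lower, 437 were at least 2-fold lower than it.

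The same contrast was made between iMPCs and myoblasts sorted for the Pax7 reporter, 3 libraries each and none shared with the bulk comparison. In sorted cells 3424 of 14263 tested genes (24%) were called, 10.6% higher and 13.4% lower, and 490 genes were called in the same direction in both, which is 38.7% of the bulk calls and 14.3% of the sorted calls; 12 were called in opposite directions. The difference of the contrasts was tested as an interaction, in which 1679 of 15825 genes (10.6%) were called, 5.49% above and 5.12% below 0, but only 4 without bulk iMPC 1 and 79 without sorted iMPC 3. The quantification assumed a longer fragment in sorted than in bulk libraries (180.03 against 152.81 bases, from the deposited effective lengths), and this cannot be told apart from the sort. Pax7, whose reporter was used for the sort, differed less among sorted cells: 276, 374 and 322 CPM in iMPCs and 840.04, 693 and 356 CPM in myoblasts (log2 fold change -1.01, not called; interaction -2.02, SE 0.49, adjusted p 0.0314). The sarcomere list had 15 of 25 genes called lower in sorted iMPCs and 0 higher, and replication and mitosis genes had 14 of 16 called higher and 0 lower, beside none of either list in bulk. The difference itself passed the interaction test, which called 5.49% of all genes above 0 and 5.12% below, in 2 of the 25, Ttn and Neb, which encodes nebulin of the thin filament, and in 4 of the 16, Plk1, Mcm2, Mcm3 and Pcna. Ttn had a log2 fold change of 0.99 in bulk and -3.32 in sorted cells (interaction adjusted p 0.0365).

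**Figure D5:**
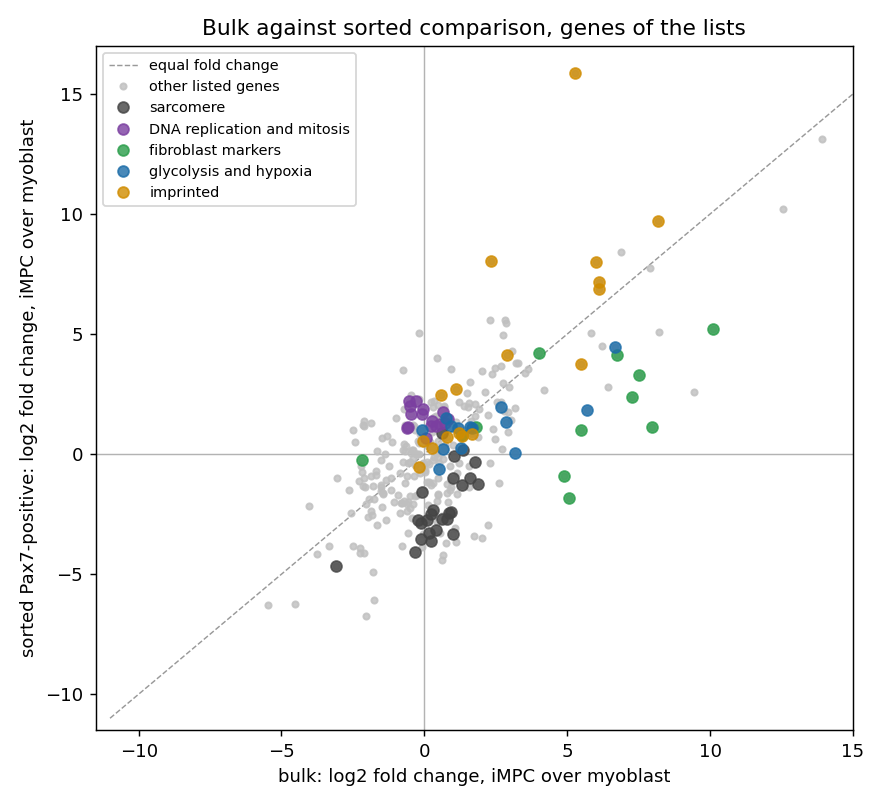
Log2 fold change of iMPCs over myoblasts in bulk (horizontal) and in sorted Pax7-positive cells (vertical) for 334 listed genes tested in both, with the dashed line at equal fold changes. Several imprinted genes (orange) lie far up on both axes, most fibroblast markers (green) lie to the right of the dashed line, and most sarcomere genes (dark grey) lie below, and the replication genes (purple) above, the horizontal line at 0.

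Fibroblast markers had 10 of 14 called higher in bulk and 1 of 12 in sorted cells, and 2 of 14, Col1a1 and Fap, passed the interaction test. Col1a1, at 260 CPM on average in bulk iMPCs, was at 12.6, 2.97 and 0.437 CPM in sorted iMPCs (interaction 6.86, adjusted p 0.0271), and Fap differed likewise (interaction 4.88, adjusted p 0.0385). Imprinted genes had 9 of 17 called higher in sorted cells, and 0 of 17 passed the interaction test, with Meg3 at log2 fold changes of 6.11 and 6.88. Of the hypoxia genes Car9 was called in both (log2 fold changes 6.66 and 4.47), while Ndrg1 had a log2 fold change of 0.04 in sorted cells (interaction 3.16, adjusted p 0.0274) and Adm of 1.83 (interaction 3.88, adjusted p 0.0372). Id1 and Id3, lower in bulk iMPCs, had log2 fold changes of 0.50 and 1.37 in sorted cells (interaction adjusted p 0.0255 and 0.0231). Chrna1 was lower in both, with -1.80 in bulk and -4.90 in sorted cells (interaction 3.12, adjusted p 0.026).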

How the data were processed

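Poly-A RNA was sequenced from both groups of 3 libraries as single-end 100-base reads (TruSeq stranded mRNA, per the labels' protocols). Per the submitters' processing notes the tools named were bcl2fastq 2.19, Trimmomatic 0.36, kallisto 0.44 and edgeR 3.28 with build GRCm38.p6. The deposited files hold estimated counts and TPM per transcript, made by the authors with kallisto; the TPM values entered no test. Here the estimated counts were summed per gene (GENCODE M21, 121104 of 121843 transcripts matched) and rounded to whole numbers. The 6 libraries were fitted with edgeR 4.0.16 (R 4.3.3; TMM, filterByExpr, quasi-likelihood test). Fold changes given as bounds are of genes with at most 3 reads in every library of 1 group. They were set against a floor of 3 reads per library, which covers counting error only. Printed CPM use TMM factors over all 45 libraries; list means are log2 CPM with a prior count of 2.

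The comparison was set as unpaired beforehand, so the main fit had no block. Deviations from the group means correlated at 0.195, -0.152 and -0.027 for same-numbered libraries. For differently numbered libraries they correlated at -0.217 to 0.173. With 3 libraries per group these values cannot show whether the numbers pair libraries. Named genes were all list members and, with non-overlapping groups, the 10 called genes with the largest fold change (at least 5 CPM) and the 10 with the largest CPM difference in each direction. They also included the 10 genes with the widest range among myoblasts (at least 20 CPM) and the 5 with the largest interaction. The members and lists were chosen with earlier results of these data known. Alternatives were DESeq2 1.42.0, limma 3.58.1 (voom with quality weights), other scaling, filters and thinning, a replicate block and leaving out each library. The test was checked on simulated data with 200 changed genes, drawn from genes with a mean of at least 20 reads. At a 4-fold change it recovered 41% of them, with 4 false calls among 86. At a 16-fold change it recovered 90.5%, with 10 false calls among 191. A gene without a call may therefore still differ.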

Additional observations from a re-analysis of the deposited data

Results flagged for a closer look

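The bulk and the sorted contrast differed in 1679 genes by the interaction test in edgeR, and the named genes among them are given here as the bulk minus the sorted log2 fold change. For Cxcl13 and Rps27rt a sorted group had no reads, so the fitted value depends on the prior count and is no measure of size. Cxcl13, a chemokine gene, had a fitted value of 12.45, with no read in any sorted iMPC library and 3.25, 9.15 and 4.27 CPM in sorted myoblasts. Rps27rt, a ribosomal protein gene, had a fitted value of -11.63, with no read in any sorted myoblast library and 137, 72.3 and 203 CPM in bulk myoblasts. Its deposited counts are not whole numbers, so its reads are shared with other genes.

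Matrix and stromal genes lay higher in the bulk contrast, with 6.86 for Col1a1, 5.10 for Col6a2 and 4.88 for Fap. So did the chemokine gene Ccl7 at 8.48, the mesothelial gene Msln at 8.17 and the cytochrome gene Cyp2d22 at 8.51. Ccl7 was too low to be tested in the sorted contrast alone. Its sorted means were 0.136 CPM in iMPCs and 0.788 CPM in myoblasts, so the size of its value is uncertain. Muscle genes with a positive difference were Ttn at 4.33, Neb at 3.35, Dysf at 5.04, Chrng at 3.85, Chrna1 at 3.12 and Ankrd1 at 3.51. Adm and Ndrg1 stood at 3.88 and 3.16, Nr4a1 at 3.82, Ppargc1a at 4.72 and Pparg at 3.07. Ifit3 was at 5.17, H2-K1 at 4.46, Cdh1 at 4.46, Vcam1 at 4.14, Rb1 at 2.40, Kcnf1 at 3.09, Lpin3 at 2.235 and Ahnak at 1.60.

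Negative differences were found for the replication and mitosis genes Mcm2 at -2.73, Mcm3 at -2.50, Plk1 at -2.16 and Pcna at -1.75, and for the BMP and Id genes Id1 at -2.91, Id3 at -3.48, Smad6 at -3.36 and Bmp7 at -6.63. The transcription factor genes Pax7, Eya1, Pitx3 and Tbx2 were at -2.02, -1.93, -3.30 and -2.76. Chodl was at -6.88, Lfng at -5.21, Fasn at -3.14, Dhcr7 at -1.53, Agrn at -1.86 and Scrn1 at -1.79. In the bulk libraries Bmp7 and Chodl did not exceed 0.127 and 0.312 TPM, so the size of their values is uncertain too.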

How the results depend on the processing

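The number of called genes depended on the fit more than their direction did: no gene called among the 1265 changed sign in any alternative. The count was 3396 with all 45 libraries in the fit, 2510 in DESeq2 and 735 among the 7959 genes with whole counts only, which has fewer genes to test. Leaving out single libraries gave 104 (without iMPC 1) to 1694 (without myoblast 2). Of the 122 called genes named here, 36 kept their call without iMPC 1, 79 without iMPC 2, 49 without iMPC 3, 43 without myoblast 1, 104 without myoblast 2, 112 without myoblast 3 and 120 in DESeq2. In sorted cells the count was 5199 with all 45 libraries and 2124 to 3136 with single libraries left out. For the interaction it was 4172 with all 45 libraries, 3104 in DESeq2, and 4 (without bulk iMPC 1) to 2508 (without bulk myoblast 2) with single libraries left out. The cause of these shifts was not tested. The count of genes with a wide range among myoblasts fell from 2403 to 521 when only genes of at least 20 CPM were counted, which by construction removes low genes.

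With the replicate number as a replicate block, 199 genes were called in bulk and 926 in the interaction; the labels do not say that a number marks a shared culture or animal.

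Some uncalled genes changed sign. With single libraries left out the log2 fold change ran from -0.38 to 0.73 for Myog, -0.076 to 1.23 for Mef2c, -0.31 to 1.62 for Acta1, -0.26 to 1.20 for Myh3, -0.10 to 0.86 for Top2a and -0.61 to 0.28 for H19, which was at 0.11 with the replicate block.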

Other observations

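Among the 84 genes called in every leave-out fit were several outside the lists, chosen here after their values were seen. All 3 main chains of collagen VI, a matrix protein around muscle fibres and fibroblasts, were in this core. Besides Col6a2, Col6a1 was at 439, 812 and 476 CPM in iMPCs and at 2.42, 6.36 and 8.33 CPM in myoblasts (log2 fold change 6.58), and Col6a3 at 323, 375 and 366 CPM against 0.1795, 1.07 and 0.188 CPM (9.36). The glucose transporter gene Slc2a3 was at 80.2, 58.7 and 54.0 CPM against 0.269, 1.26 and 0.826 CPM (6.24). Pfkp, a phosphofructokinase gene, was at 405, 459.7 and 309.5 CPM against 37.1, 38.5 and 35.1 CPM (3.33), and Pfkfb3, which makes an activator of that enzyme, at 73.2, 68.4 and 85.6 CPM against 7.50, 6.68 and 7.995 CPM (3.27). The adenylate kinase gene Ak4 had a log2 fold change of 3.99.

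Transcription factors and signalling genes of the core ran in both directions. The retinoic acid receptor gene Rarb was at 10.2, 11.05 and 11.5 CPM in iMPCs and at most 0.916 CPM in myoblasts (3.85), and Socs3, a feedback inhibitor of cytokine signalling, had a log2 fold change of 3.30. Gata4, a factor of heart and endoderm, was at 0.367, 0.389 and 0.485 CPM in iMPCs and at 6.28, 9.09 and 7.43 CPM in myoblasts (-4.27). Sim2, a bHLH-PAS factor, was at most 0.509 CPM in iMPCs and at 31.7, 10.05 and 27.6 CPM in myoblasts (-5.91). Scrn1, Lpin3 and Kcnf1 were lower in iMPCs too, with log2 fold changes of -3.91, -3.45 and -2.22. For these genes the libraries of each group lay close together compared with the distance between the groups, which their selection from this core favours.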
